A study of Homo sapiens with 9 samples.

Results

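The genes described here are the inhibitors of DNA binding ID1, ID2 and ID3 and 7 components of bone morphogenetic protein (BMP) signalling: the intracellular transducers SMAD1 and SMAD5, the inhibitory SMADs SMAD6 and SMAD7, the receptors BMPR1A and BMPR2, and the secreted antagonist SOSTDC1. They are 10 of the 30817 genes named on an Illumina bead array, and were taken as every probe bearing one of these gene names, which gave 18 of 47230 probes. The array was hybridised with RNA of NCI-H716, an established colorectal cancer cell line with neuroendocrine features. There were 3 arrays of cells given a YAP mutant vector, 3 of cells given a control vector and 3 of untreated cells. All 3 groups are the same line, and the series title describes over-expression of YAP1, a transcriptional coactivator of the Hippo pathway. Which mutation the vector carries, how the vectors were delivered and whether the cells were clones or pools are not given in the sources used here. The labels name no separate cultures behind the 3 arrays of a group, and the p-values therefore rest on the scatter of these arrays alone, and that scatter may be technical. The genes were chosen by the differences of ID3 and ID1 between vector and untreated arrays, and no threshold was set. Their values against untreated cells are therefore a description without a test, and for them a test was made only between the vectors.

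BMP ligands bind pairs of type I receptors such as BMPR1A and type II receptors such as BMPR2. The type I receptor then phosphorylates SMAD1 and SMAD5, which enter the nucleus with SMAD4 and switch on target genes. ID1, ID2 and ID3 are classical targets of this route: they are helix-loop-helix proteins without a DNA-binding region, which hold E proteins such as TCF3 and TCF12 away from DNA. SMAD6 and SMAD7 are induced by the same route and damp it. In the gut, BMP signals act against the stem cell state at the crypt base, and ID genes serve there as a readout of the pathway.

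Signals below are log2 intensities after background correction and quantile normalisation, on which 1 unit is a doubling, and differences are given with the standard error of the model. A probe was kept when it lay above a background floor of 6.52 on at least 3 of the 9 arrays, and 15 of the 18 probes passed. All 10 genes had a kept probe, and the brightest stood for the gene among the 14028 genes tested. The median unprocessed intensity was 104.6 to 122.3 on the YAP mutant vector arrays, 104.2 to 128.5 on the control vector arrays and 125.2 to 128.8 on the untreated arrays. The YAP1 probe averaged 7.94 ± 0.12 on YAP mutant vector arrays, 7.87 ± 0.08 on control vector arrays and 8.17 ± 0.14 in untreated cells (SD, n = 3 each), and no comparison of it was called. Its position relative to the inserted sequence is not known here, so it does not check the labels. CCN2, a textbook YAP target, averaged 8.93 ± 0.39 on YAP mutant vector arrays, 6.80 ± 0.12 on control vector arrays and 6.87 ± 0.07 in untreated cells (SD, n = 3 each), and rose by 2.13 against the control vector (limma adjusted p = 5.28e-09). Of 7 epithelial markers 5 passed the filter (not CDH1 or VIL1), as did 9 of 11 enteroendocrine, 4 of 8 fibroblast, 1 of 7 endothelial and 3 of 7 blood cell markers. COL1A1, DCN, PECAM1, CDH5, PTPRC and CD3E did not pass it. The summed enteroendocrine markers were 15.35 to 15.41 with the YAP mutant vector, 15.37 to 15.54 with the control vector and 15.34 to 15.48 in untreated cells. The summed epithelial markers were 10.55 to 10.97 with the YAP mutant vector, 10.41 to 10.75 with the control vector and 10.58 to 10.64 in untreated cells. The endothelial marker ESAM was 6.69 to 6.76 with the YAP mutant vector, 6.31 to 6.70 with the control vector and 6.53 to 6.78 in untreated cells. The summed fibroblast markers were 11.78 to 12.04 with the YAP mutant vector, 11.63 to 11.90 with the control vector and 11.49 to 11.61 in untreated cells. The summed blood cell markers were 11.43 to 11.80 with the YAP mutant vector, 11.72 to 11.74 with the control vector and 11.29 to 11.50 in untreated cells. Against untreated cells, limma called SCG2 (-0.87) and PCSK1 (-0.57) lower with the YAP mutant vector. It called SCG3 (0.43), SCG5 (0.35), LUM (0.51) and KRT8 (0.50) higher. These were 4 of 9 enteroendocrine, 1 of 4 fibroblast and 1 of 5 epithelial markers tested, where 5.82% of all genes were called. Enteroendocrine markers thus moved both ways. Of the epithelial markers not called, EPCAM (-0.26) and CDX2 (-0.09) were lower and KRT18 (0.04) and KRT19 (0.31) higher. The KRT8 arrays overlapped those of untreated cells. With the control vector limma called SCG2 lower (-0.43), 1 of 9 enteroendocrine markers. It called the blood cell markers CD14 (0.43) and HBB (0.45) higher, 2 of 3 tested, where 2.48% of all genes were called. The 8 called markers were looked up after their values were seen, and their part in the results was not tested.

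The promoters of the 3 ID genes, whose signals moved together, and of SMAD6, the inhibitory SMAD that differed most between groups, are shown from RefSeq (GRCh38.p14), each 5′ to 3′ on the strand of its gene, from 250 bases before the annotated start to 20 after it. Capitals mark matches to any of 4 motifs: GGCGCC, a GC-rich SMAD1/5 element, GTCTAGAC, the palindromic SMAD element, and GGAATG, the core bound by the TEAD factors through which YAP acts, on either strand, and TATAAA on the strand of the gene. The windows are chr20:31605039-31605308 (plus strand) for ID1, chr2:8681806-8682075 (plus strand) for ID2, chr1:23559482-23559751 (minus strand) for ID3 and chr15:66701986-66702255 (plus strand) for SMAD6.
ID1: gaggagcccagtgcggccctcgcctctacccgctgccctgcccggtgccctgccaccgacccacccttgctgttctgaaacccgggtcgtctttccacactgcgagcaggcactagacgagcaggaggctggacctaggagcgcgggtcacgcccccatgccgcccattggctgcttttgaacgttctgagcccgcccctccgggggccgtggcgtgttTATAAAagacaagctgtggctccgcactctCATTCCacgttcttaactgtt
ID2: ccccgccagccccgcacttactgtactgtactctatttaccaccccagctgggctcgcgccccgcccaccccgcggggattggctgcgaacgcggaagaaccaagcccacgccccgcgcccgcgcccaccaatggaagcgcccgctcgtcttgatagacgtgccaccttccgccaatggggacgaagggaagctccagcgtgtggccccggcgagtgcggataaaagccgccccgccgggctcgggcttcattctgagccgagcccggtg
ID3: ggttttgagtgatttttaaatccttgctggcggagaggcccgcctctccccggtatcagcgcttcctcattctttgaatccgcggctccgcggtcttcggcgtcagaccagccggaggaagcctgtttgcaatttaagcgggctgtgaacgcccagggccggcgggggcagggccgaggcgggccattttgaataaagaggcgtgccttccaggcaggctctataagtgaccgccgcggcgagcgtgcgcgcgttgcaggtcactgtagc
SMAD6: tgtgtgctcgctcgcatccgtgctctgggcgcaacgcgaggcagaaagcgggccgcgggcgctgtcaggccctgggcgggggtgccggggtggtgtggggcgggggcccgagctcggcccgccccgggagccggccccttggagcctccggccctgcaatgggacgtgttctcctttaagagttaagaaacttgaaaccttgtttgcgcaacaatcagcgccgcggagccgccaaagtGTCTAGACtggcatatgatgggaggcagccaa
The ID1 window held TATAAA 31 bases before the start. It also held CATTCC, the reverse complement of GGAATG, which began 1 base before the start and ran across it. SMAD6 held GTCTAGAC 12 bases before its start. None of the 4 motifs lay in the ID2 or ID3 window. Over the 300-base windows of 35116 RefSeq promoters, GGCGCC occurred in 19.2%, GTCTAGAC in 0.202%, GGAATG in 14.0% and TATAAA in 7.33%. The 9 members with a promoter entry had 15 windows, of which 4 held GGCGCC (in SMAD1, SMAD5 and BMPR2), 3 GGAATG (in ID1, SMAD5 and BMPR1A), 2 TATAAA (in ID1 and SMAD7) and 1 GTCTAGAC (in SMAD6). These matches describe letters in the windows and no binding.

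The ID genes were bright in untreated cells and lower on every vector array. ID3 had log2 signals of 11.33, 11.81 and 10.34 with the YAP mutant vector, 11.69, 11.60 and 10.51 with the control vector, and 12.89, 12.89 and 12.79 in untreated cells. The untreated arrays lay within 0.1 of each other and above all 6 vector arrays. On the scanner's own scale the same probe read 2008, 3751 and 1309 with the YAP mutant vector, 3800, 3393 and 1100 with the control vector, and 8175, 8645 and 7438 in untreated cells. The group means of ID3 put it 3.25-fold lower with the YAP mutant vector and 3.02-fold lower with the control vector than in untreated cells, on the normalised scale. Both were the lowest differences of all 14028 genes (rank 1). The members were chosen by these differences of ID3 and ID1, so the rank describes that choice.

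ID1 followed the same order. Its brighter probe read 10.74, 11.24 and 9.92 with the YAP mutant vector, 11.12, 10.92 and 10.16 with the control vector, and 11.75, 12.08 and 12.08 in untreated cells. Every vector array lay below every untreated array. The differences from untreated cells were -1.34 ± 0.23 with the YAP mutant vector and -1.24 ± 0.23 with the control vector, a level 2.52-fold and 2.36-fold lower, and ranked 2 from the lowest in both. As for ID3, the rank describes the choice of members. The dimmer ID1 probe read 7.72, 8.47 and 7.12 with the YAP mutant vector, 8.0, 7.67 and 7.40 with the control vector, and 8.80, 9.12 and 9.08 in untreated cells, with differences of -1.23 and -1.31. On both probes every vector array lay below every untreated array.

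ID2 showed the same order with smaller differences. Its brighter probe read 11.69, 12.17 and 11.30 with the YAP mutant vector, 11.92, 11.97 and 11.49 with the control vector, and 12.50, 12.58 and 12.58 in untreated cells. The groups again did not overlap with untreated cells, and the levels were 1.78-fold and 1.69-fold lower, rank 13 from the lowest in both comparisons. The choice of members used this contrast, so the rank is a description. The second ID2 probe differed by -1.09 with the YAP mutant vector and by -0.89 with the control vector. ID4, the remaining member of the family, was above the floor on none of the 9 arrays (0 of 9).

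**Figure D1:**
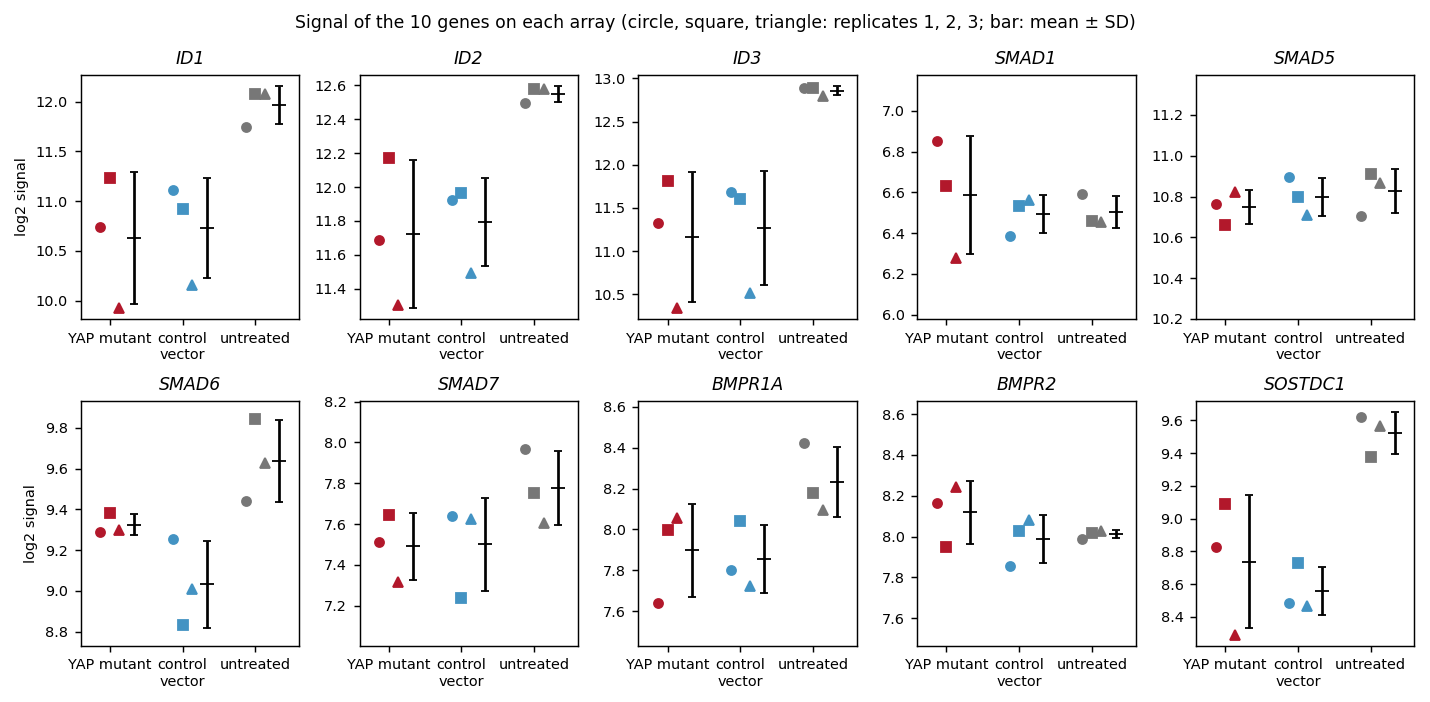
Log2 signal of the brightest probe of each of the 10 genes (vertical axes) on each of the 9 arrays, with the YAP mutant vector left, the control vector in the middle and untreated cells right; symbols are arrays (circle, square and triangle for replicates 1, 2 and 3) and bars are the group mean ± SD (n = 3). ID1, ID2, ID3 and SOSTDC1 lie lower on all vector arrays than on all untreated arrays, with a wide spread of the ID genes within both vector groups.

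The replicates within the vector groups were uneven. Against the untreated mean, ID3 was 2.89-fold, 2.06-fold and 5.74-fold lower on YAP mutant vector arrays 1, 2 and 3, and 2.25-fold, 2.39-fold and 5.09-fold lower on control vector arrays 1, 2 and 3. ID1 was 2.35-fold, 1.66-fold and 4.13-fold lower on the YAP mutant vector arrays and 1.81-fold, 2.07-fold and 3.51-fold lower on the control vector arrays. ID2 was 1.82-fold, 1.3-fold and 2.38-fold lower on the YAP mutant vector arrays and 1.55-fold, 1.5-fold and 2.08-fold lower on the control vector arrays. Array 3 of either vector was the lowest in its group for all 3 ID genes, and array 2 of the YAP mutant vector was the highest of the 6 vector arrays.

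The spread was far above that of most genes. The SD within the vector groups was 0.71 for ID3, the third largest of the 14028 genes, after LOC100129882 (0.88) and HINT3 (0.83). It was 0.59 for ID1, the fifth largest (ALDH3A1 lay between them at 0.59), and 0.36 for ID2, with 0.228% of genes above it. The median over all genes was 0.13. In untreated cells ID3 had an SD of only 0.06, ID1 of 0.19 and ID2 of 0.05, against a median of 0.11 over all genes. After the group means were taken out, the deviations of ID1 and ID3 correlated at r = 0.96 over the 9 arrays, those of ID1 and ID2 at 0.96 and those of ID2 and ID3 at 0.95. SOSTDC1 deviated the same way as ID1 (r = 0.73), ID2 (0.83) and ID3 (0.78), and BMPR2 the opposite way (-0.83, -0.85 and -0.83). These points share the 9 arrays and their normalisation, and are given as a description.

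The arrays also differed in brightness, whose part in this spread was not tested. The lowest median intensities belonged to control vector array 3 (104.2) and YAP mutant vector array 1 (104.6), and YAP mutant vector array 3, lowest for the ID genes, had a median of 122.0. The deviations of ID1, ID2 and ID3 correlated with the log2 median intensity at r = 0.40, 0.41 and 0.40. Without both dim arrays the difference of ID3 from untreated cells was -1.775 with the YAP mutant vector and -1.21 with the control vector.

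**Figure D2:**
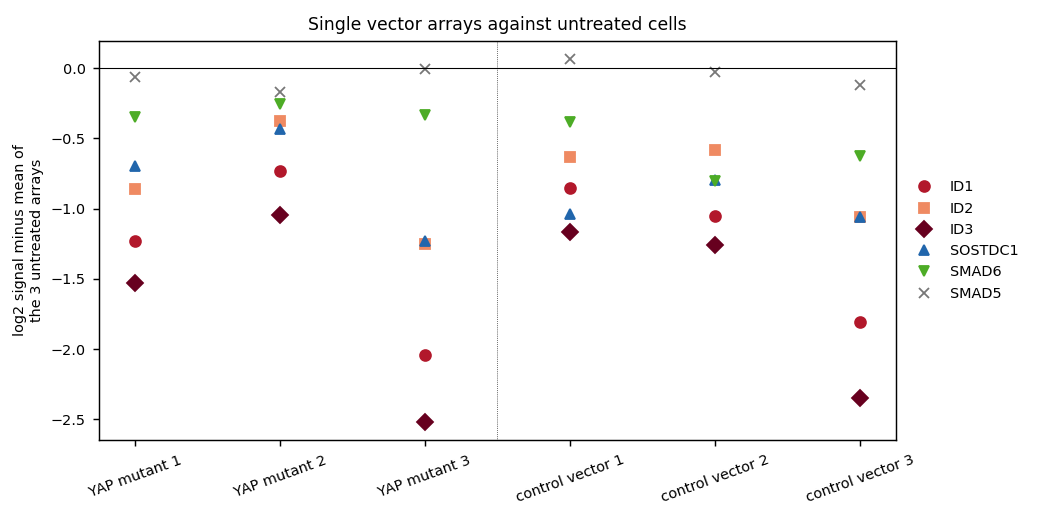
Log2 difference of each vector array from the mean of the 3 untreated arrays (vertical axis, 0 is the untreated mean) for ID1, ID2, ID3, SOSTDC1, SMAD6 and SMAD5, YAP mutant vector arrays left of control vector arrays. For ID3 the differences run from -1.05 to -2.52 with the YAP mutant vector and from -1.17 to -2.35 with the control vector, while SMAD5 stays near 0 on all 6 arrays.

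The 2 vectors were not told apart by the ID genes. ID3 differed by -0.11 ± 0.27 between the YAP mutant vector and the control vector (95% interval -0.66 to 0.45, limma adjusted p = 0.979), ID1 by -0.10 ± 0.23 (-0.58 to 0.39, adjusted p = 0.978) and ID2 by -0.07 ± 0.16 (-0.40 to 0.26, adjusted p = 0.977). The arrays overlapped for each of the 3 genes. The dimmer ID1 probe differed by 0.08 between the vectors, opposite in sign to the brighter one. The sign rested on single arrays: without YAP mutant vector array 3 the differences were 0.31 for ID3, 0.26 for ID1 and 0.14 for ID2, and without control vector array 3 they were -0.48, -0.38 and -0.22.

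SOSTDC1, a secreted protein that binds BMPs and also dampens Wnt signalling, was the other member with a large difference from untreated cells. It read 8.83, 9.09 and 8.29 with the YAP mutant vector, 8.49, 8.73 and 8.46 with the control vector, and 9.62, 9.38 and 9.57 in untreated cells. All vector arrays lay below all untreated arrays, by 1.73-fold with the YAP mutant vector (-0.79 ± 0.15, rank 15 from the lowest) and 1.95-fold with the control vector (-0.96 ± 0.15, rank 7). These ranks too come from the contrast used in choosing the members. Between the vectors the difference was 0.18 ± 0.15 (interval -0.13 to 0.48, limma adjusted p = 0.919), with overlapping arrays.

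The inhibitory SMADs differed from each other. SMAD6, which blocks mainly the BMP-activated SMADs, read 9.29, 9.38 and 9.30 with the YAP mutant vector, 9.26, 8.83 and 9.01 with the control vector, and 9.44, 9.84 and 9.63 in untreated cells. None of the 3 groups overlapped after normalisation: untreated arrays were highest, YAP mutant vector arrays lay between, and control vector arrays were lowest. The gaps were small, between 9.29 and 9.26 and between 9.44 and 9.38. On the scanner's own scale control vector array 1 (740) read above all YAP mutant vector arrays (522, 732 and 662). The lack of overlap between the vector groups therefore rested on the normalisation. The differences from untreated cells were -0.31 ± 0.12 with the YAP mutant vector and -0.60 ± 0.12 with the control vector. Between the vectors SMAD6 differed by 0.29 ± 0.12 (interval 0.04 to 0.54), which did not pass the test (limma adjusted p = 0.631 over 14028 genes). SMAD7, which acts on both the BMP and the TGF-beta branch, read 7.51, 7.65 and 7.32 with the YAP mutant vector, 7.64, 7.24 and 7.63 with the control vector, and 7.97, 7.75 and 7.61 in untreated cells. Its groups overlapped throughout, with -0.29 and -0.28 against untreated cells and -0.01 ± 0.13 between the vectors (adjusted p = 0.994).

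Of the transducers and receptors, BMPR1A was the 1 gene whose vector and untreated arrays did not overlap. SMAD5 read 10.76, 10.66 and 10.82 with the YAP mutant vector, 10.89, 10.80 and 10.71 with the control vector, and 10.70, 10.91 and 10.86 in untreated cells, with all groups overlapping. SMAD1 lay at the floor: its brightest probe read 6.28 to 6.85 with the YAP mutant vector, 6.39 to 6.56 with the control vector and 6.45 to 6.59 in untreated cells, and was above background on 2, 2 and 1 arrays of these groups. Its differences are therefore those of a signal close to background. The type I receptor BMPR1A read 7.64, 8.0 and 8.06 with the YAP mutant vector, 7.80, 8.04 and 7.72 with the control vector, and 8.42, 8.18 and 8.10 in untreated cells. Its untreated arrays lay above all vector arrays, although the gap between 8.06 and 8.10 was small. The differences were -0.34 with the YAP mutant vector (rank 452 from the lowest) and -0.38 with the control vector (rank 179). As for the ID genes, these ranks come from the contrast used in choosing the members. A second BMPR1A probe was above the floor on 2 of 9 arrays and was not used. The type II receptor BMPR2 read 8.16, 7.95 and 8.24 with the YAP mutant vector, 7.86, 8.03 and 8.08 with the control vector, and 7.99, 8.02 and 8.03 in untreated cells. Its 2 kept probes disagreed in sign between the vectors, at 0.13 for the brighter and -0.19 for the dimmer. They correlated at only r = 0.25 over the 9 arrays. The probe pair of SMAD5 correlated at 0.28 and that of SMAD7 at 0.52, against 0.98 for the ID1 pair and 0.97 for the ID2 pair. The dimmer SMAD5 probe differed from untreated cells by 0.02 with the YAP mutant vector and 0.11 with the control vector, and by -0.09 between the vectors. For the dimmer SMAD7 probe these differences were -0.21, -0.26 and 0.06.

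Of the 10 members, 6 had non-overlapping, lower signals with the YAP mutant vector than in untreated cells, where 11.8% of all genes did, and the same 6 with the control vector, where 9.22% did: ID1, ID2, ID3, SMAD6, BMPR1A and SOSTDC1. The choice of members used this contrast, and the comparisons share the untreated arrays. Over the members the median difference was -0.32 with the YAP mutant vector and -0.49 with the control vector, against -0.0070 and -0.0025 over all genes. Between the vectors 0 of 10 members were called by limma, where 0.364% of genes were, and 1 of 10 (SMAD6) had an unadjusted p under 0.05, as did 6.63% of all genes. SMAD6 was also the single member whose vector groups did not overlap after normalisation, higher with the YAP mutant vector as for 5.8% of genes.

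**Figure D3:**
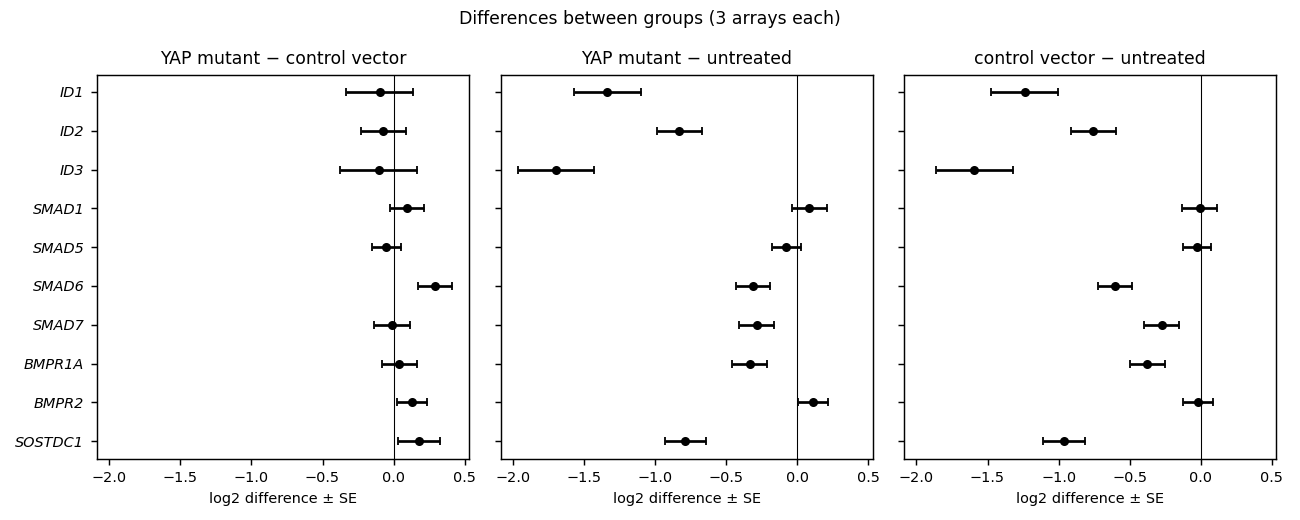
Log2 differences of the 10 genes (horizontal axes) for the YAP mutant vector against the control vector (left), the YAP mutant vector against untreated cells (middle) and the control vector against untreated cells (right); points are group differences and bars the standard error, with 3 arrays per group. SMAD6 lies at 0.29 between the vectors, and ID3, ID1, SOSTDC1 and ID2 stand lowest against untreated cells.

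The rest of the pathway was followed in 122 listed genes, of which 64 passed the filter and were tested. Between the vectors limma called 0 of 64, where 0.364% of all genes were called, and 8 of the 64 had an unadjusted p under 0.05, as did 6.63% of all genes. Against untreated cells it called 12 of 64 with the YAP mutant vector (8 higher and 4 lower), where 5.82% of all genes were called, and 5 of 64 with the control vector (2 higher and 3 lower), where 2.48% were. Higher calls made up 3.79% and lower calls 2.03% of all genes with the YAP mutant vector, and 1.73% and 0.756% with the control vector. The median difference over the 64 genes was 0.0040 with the YAP mutant vector and -0.022 with the control vector. The lists were drawn up with earlier results of these data known.

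Among the BMP-responsive genes, 1 of 11 tested was called in each comparison with untreated cells. Over all genes 5.82% were called with the YAP mutant vector and 2.48% with the control vector. The called gene was lower in both: ATOH8, a helix-loop-helix factor that BMP signalling induces in other cells. It read 7.17, 7.56 and 6.74 with the YAP mutant vector, 7.12, 7.09 and 6.76 with the control vector, and 7.87, 7.80 and 7.95 in untreated cells. It fell by 0.72 ± 0.15 with the YAP mutant vector (limma adjusted p = 0.00483) and by 0.89 ± 0.15 with the control vector (adjusted p = 0.00175), and its arrays, like those of the ID genes, were lowest in array 3 of either vector. Of the 11 tested genes, 2 had a difference above 0 with the YAP mutant vector and 1 with the control vector. The list medians were -0.15 with the YAP mutant vector and -0.19 with the control vector, against -0.0070 and -0.0025 over all genes. Several of the 11 lay near the floor. DLX2 was above it on 1 YAP mutant vector, 1 control vector and 2 untreated arrays, and RUNX2 on 2, 1 and 1. GATA3 was above it on 1 YAP mutant vector array and UNC5B on 1 control vector array. The signs of these genes are those of signals close to background.

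Among ligands, BMP4 read 9.14, 8.88 and 9.07 with the YAP mutant vector, 9.08, 8.97 and 8.81 with the control vector, and 8.62, 8.75 and 8.48 in untreated cells. It rose by 0.42 ± 0.11 with the YAP mutant vector against untreated cells (limma adjusted p = 0.0235), and differed by 0.34 ± 0.11 with the control vector (adjusted p = 0.111). GDF15, a stress-induced distant relative of the family, fell by 0.49 with the YAP mutant vector (adjusted p = 0.00795). It differed by -0.31 with the control vector (adjusted p = 0.164). BMP2 was above the floor on 1 of 9 arrays, and BMP7 on none (0 of 9). INHBE, an activin subunit, and CTDSPL, a phosphatase, lay outside the naming rule and were looked up after their values were seen. They rose by 0.67 and 0.36 with the YAP mutant vector (adjusted p = 0.0207 and 0.0232). With the control vector they differed by 0.54 and 0.04 (adjusted p = 0.104 and 0.901).

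Among receptors, TGFBR2, the type II receptor of TGF-beta, read 7.69, 8.01 and 8.20 with the YAP mutant vector, 7.69, 7.70 and 7.76 with the control vector, and 7.35, 7.41 and 7.42 in untreated cells. It rose by 0.57 ± 0.11 with the YAP mutant vector (limma adjusted p = 0.00314) and differed by 0.32 ± 0.11 with the control vector (adjusted p = 0.156). The BMP type I receptors ACVR1 and BMPR1B and the type II receptor ACVR2A differed from untreated cells by -0.06 to 0.09 over both vectors, with no call. BMPR1B was above the floor on 2 arrays of each group, and ACVR2B was above the floor on none of the 9 arrays (0 of 9). BAMBI, a decoy receptor, differed by -0.12 with the YAP mutant vector and -0.31 with the control vector (adjusted p = 0.602 and 0.164).

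Among the other SMADs, 2 of 4 were called with the YAP mutant vector and 1 of 4 with the control vector. Over all genes the called shares were 5.82% and 2.48%. SMAD9, a BMP-branch SMAD, fell by 0.44 ± 0.10 with the YAP mutant vector (limma adjusted p = 0.00882) and differed by -0.21 ± 0.10 with the control vector (adjusted p = 0.315). SMAD3, of the TGF-beta branch, rose by 0.44 ± 0.11 with the YAP mutant vector (adjusted p = 0.0224) and by 0.43 ± 0.11 with the control vector (adjusted p = 0.0451). SMAD2, of the same branch, lay at the floor, above background on 1 YAP mutant vector array, 2 control vector arrays and 2 untreated arrays, so its difference of -0.03 in both is that of a signal close to background. SMAD4, the shared partner, differed by 0.11 with the YAP mutant vector and 0.01 with the control vector, with no call.

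Among antagonists, GREM1, which binds BMP2 and BMP4 outside the cell, read 7.30, 7.24 and 7.14 with the YAP mutant vector, 7.35, 7.19 and 7.29 with the control vector, and 7.63, 7.68 and 7.65 in untreated cells. It fell by 0.42 ± 0.10 with the YAP mutant vector (limma adjusted p = 0.00937) and by 0.37 ± 0.10 with the control vector (adjusted p = 0.0417). FSTL1, a follistatin-like secreted protein, fell by 0.51 ± 0.10 with the control vector (adjusted p = 0.00727) and differed by -0.10 with the YAP mutant vector (adjusted p = 0.647). The difference between the vectors was 0.41 ± 0.10 and was not called (adjusted p = 0.112). NOG was above the floor on none of the 9 arrays (0 of 9).

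The intracellular regulators included 4 of 23 tested genes called with the YAP mutant vector against untreated cells, all higher. Over all genes 5.82% were called in this comparison and 3.79% were called higher. TOB1, an antiproliferative protein that restrains BMP-activated SMADs, rose by 0.52, CTDSP2, a phosphatase that acts on SMADs, by 0.50, and TGIF2, a corepressor, by 0.49 (limma adjusted p = 0.00588, 0.00631 and 0.0114). With the control vector limma called 0 of the 23, where 2.48% of all genes were called. Of the 23, 2 had an unadjusted p under 0.05, as did 14.6% of all genes. TOB1 differed by 0.40 there, CTDSP2 by 0.32 and TGIF2 by 0.22 (limma adjusted p = 0.0577, 0.129 and 0.389). Of the helix-loop-helix partners of the ID proteins, TCF3 and TCF12 were not called (0.23 and 0.04 with the YAP mutant vector, 0.16 and 0.24 with the control vector), and TCF4 was above the floor on no array (0 of 9). ATOH1, a secretory lineage factor, rose by 0.41 with the control vector (adjusted p = 0.0353) and differed by 0.31 with the YAP mutant vector (adjusted p = 0.0814).

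Several of these calls lay close to the threshold and were lost when arrays were left out, with the same sign in each case. With the YAP mutant vector against untreated cells, BMP4 lost its call without untreated array 1 or 3 or YAP mutant vector array 1 or 3 (limma adjusted p = 0.0587 to 0.122, differences of 0.35 to 0.42), SMAD3 without untreated array 2 or 3 or YAP mutant vector array 1 or 3 (adjusted p = 0.0642 to 0.115, differences of 0.36 to 0.44), and INHBE and CTDSPL without any 1 of 5 arrays each (adjusted p = 0.0551 to 0.138 and 0.0528 to 0.0867). GDF15 lost it without untreated array 2 (0.0585) or YAP mutant vector array 3 (0.0538), GREM1 without YAP mutant vector array 3 (0.0534), SMAD9 without untreated array 2 (0.0635), and TGIF2 without untreated array 1 (0.0506) or YAP mutant vector array 1 (0.0576). With the control vector, SMAD3 lost it without any 1 of 5 arrays (0.0529 to 0.218), ATOH1 without 5 (0.0503 to 0.174) and GREM1 without 6 (0.0571 to 0.154). Over all 23 alternative runs, SMAD3 lost this call in 12, ATOH1 in 9 and GREM1 in 13. For SMAD3 these included the log2 values deposited by the authors (limma adjusted p = 0.0567). ATOH8, TGFBR2, TOB1, CTDSP2 and FSTL1 kept the calls given above with each array left out. Scaling the arrays to a common median in place of quantile normalisation left ATOH8 as the 1 called pathway gene in each comparison with untreated cells.

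**Figure D4:**
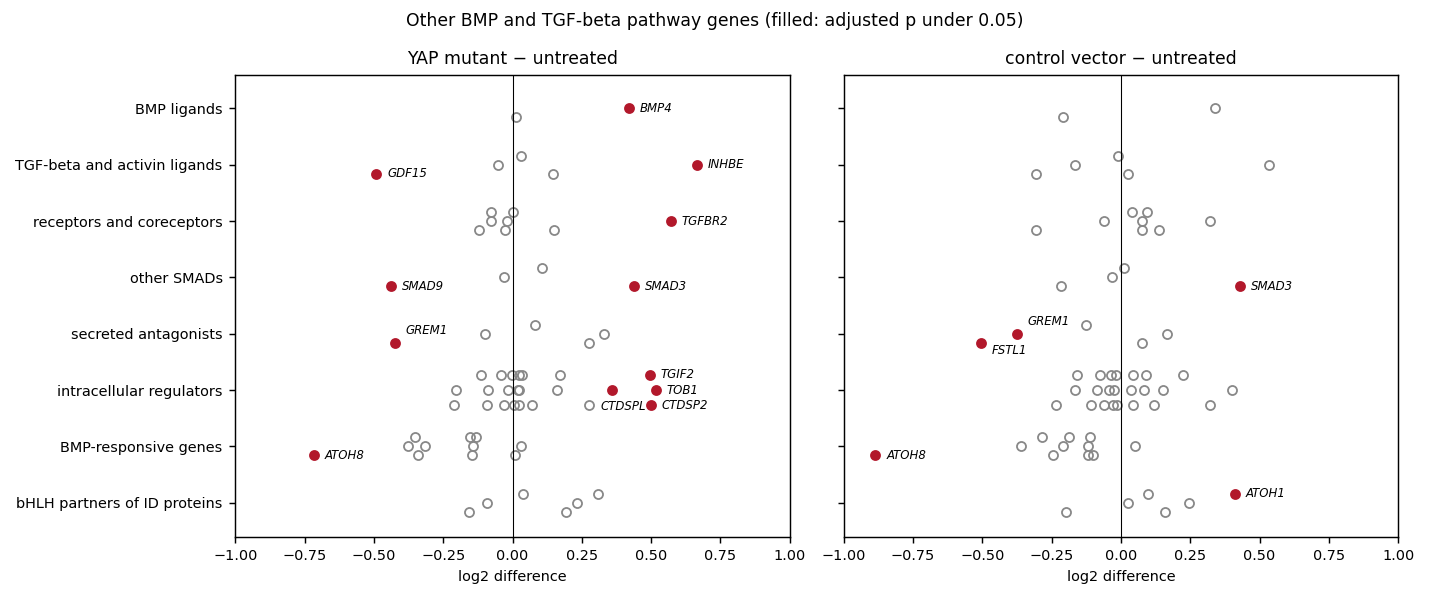
Log2 difference from untreated cells (horizontal axes) of the 64 tested pathway genes, by list, for the YAP mutant vector (left) and the control vector (right); filled points have an adjusted p under 0.05 and are named. Of the BMP-responsive genes, ATOH8 is the called one in both panels, at -0.72 and -0.89.

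The genes most like ID1 and ID3 over the 9 arrays were found by Pearson correlation with the mean of their standardised signals, among 249 genes with an SD of at least 0.3. This measure follows the difference between vector and untreated arrays as well as the order within groups, and is given without a test. ID2 came first (r = 0.99), before the growth factor receptor FGFR3 (0.97), ATOH8 (0.96), the transcription factor TFAP2A (0.96), the cytochrome P450 gene CYP1B1 (0.95) and the enamel protein gene AMBN (0.94). FGFR3 read 8.18, 8.76 and 8.02 with the YAP mutant vector, 8.63, 8.59 and 7.95 with the control vector, and 9.0, 9.07 and 9.13 in untreated cells, so that array 3 of either vector was again the lowest. SOSTDC1 ranked 10 (r = 0.92) and SMAD6 ranked 42 (r = 0.69). The most opposite genes were ABCA1, a cholesterol exporter (-0.98), RHBDL3, a rhomboid-like gene (-0.97), the stress-induced GADD45A (-0.97) and the metabolic coactivator PPARGC1A (-0.97). ABCA1 read 8.95, 8.39 and 9.34 with the YAP mutant vector, 8.57, 8.63 and 9.19 with the control vector, and 7.53, 7.44 and 7.46 in untreated cells. Its highest vector arrays were those in which the ID genes were lowest.

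**Figure D5:**
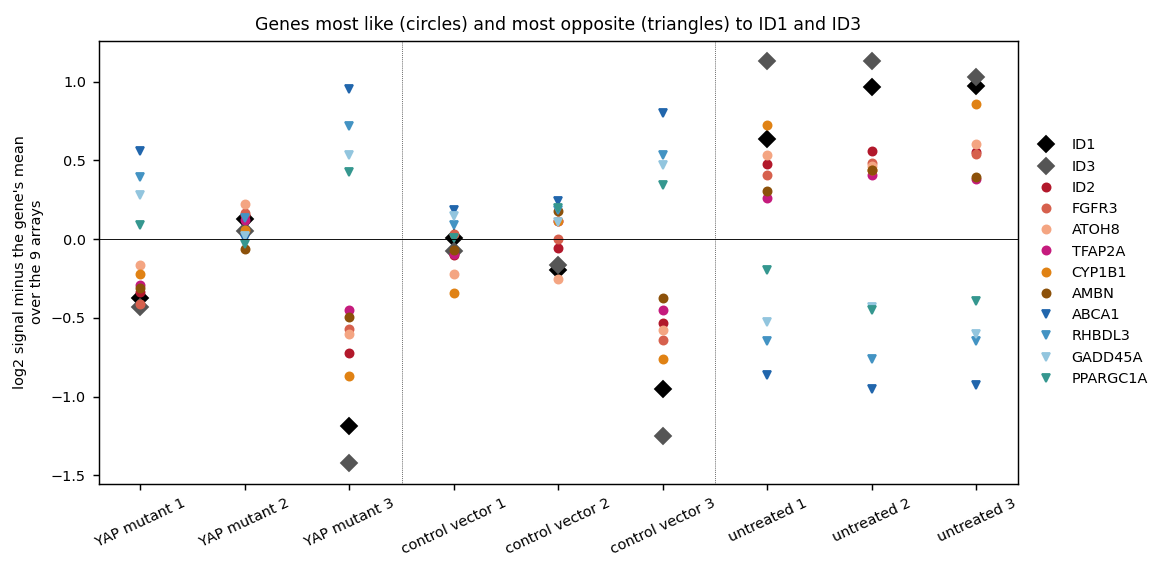
Log2 signal minus the mean of each gene over the 9 arrays (vertical axis) for ID1 and ID3 (diamonds), the 6 genes most like them (circles) and the 4 most opposite (triangles) on each array (horizontal axis), YAP mutant vector left, control vector in the middle and untreated cells right. Array 3 of either vector is the lowest of its group for each of the 6 and the highest of its group for each of the 4.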

How the data were processed

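Gene expression was measured in 9 RNA samples of NCI-H716 cells, grouped by the titles. The deposited table, exported with BeadStudio per the labels, holds probe intensity, neither background-corrected nor normalised. The authors' second deposited table holds log2 values, which differed by at most 0.022 from log2 quantile-normalised intensities and served as an alternative. No 2 arrays were identical (0 pairs).

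Intensities were background corrected (normexp, offset 50), quantile normalised and log2-transformed (limma 3.58.1, R 4.3.3). As no detection p-values were given, the filter used a floor of mode plus 1.645 SD of the lower side, exceeded on at least 3 of 9 arrays, which kept 19212 probes and 14028 genes. Symbols were updated through RefSeq. One model over 9 arrays (6 residual and 15.0 prior degrees of freedom) was fitted with moderated statistics, 2-sided, and a gene was called when its Benjamini-Hochberg adjusted p over all genes was under 0.05. The code was tested on simulated data. The number of arrays limits the precision.

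The members and gene lists were chosen with earlier results of these data known. Genes named were all members, 19 listed relatives whatever their p, up to 8 called genes per comparison in the pathway lists, YAP1 and CCN2, and the 6 most like and 4 most opposite genes. Alternatives covered background correction, normalisation, filter, probe choice, array weights, variance prior, replicate block, groups in the fit and each array left out.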

Additional observations from a re-analysis of the deposited data

How the results depend on the processing

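The ID genes stayed lower with both vectors than in untreated cells in every alternative run: ID3 ranged from -2.03 to -1.29 with the YAP mutant vector and from -1.80 to -1.21 with the control vector, ID1 from -1.64 to -0.98 and from -1.43 to -0.95, and ID2 from -1.06 to -0.62 and from -0.86 to -0.60. Between the vectors 0 members and 0 pathway genes were called in every alternative run, while ID3 ran from -0.57 to 0.31 and ID1 from -0.43 to 0.26. Of the member values, 683 stayed within the gene's own spread between replicates, which was wide for the ID genes and allowed these changes of sign. The 4 that did not were BMPR2 with the mean over probes (-0.03 both against the control vector and against untreated cells, YAP mutant vector) and SMAD5 in arrays scaled to a common median (2 comparisons). Of the pathway gene values 317 kept their call, 74 lost it and 0 reversed. The main counts of called genes were 51 between the vectors, and against untreated cells 816 with the YAP mutant vector and 348 with the control vector. Scaling to a common median gave 10, 196 and 50, with 1 pathway gene in each comparison with untreated cells, which was ATOH8. An offset of 16 gave 23 between the vectors and 175 for the control vector, with 2 pathway genes there. Without both dim arrays these were 26 and 160, with 2 pathway genes for the control vector, where no filter gave 2 and testing every kept probe 3. Leaving out each array gave 23 to 54, 489 to 867 and 159 to 377 called genes, 7 to 13 pathway genes for the YAP mutant vector and 2 to 7 for the control vector against untreated cells. The cause was not tested. Arrays of the same number did not pair (correlation of deviations -0.22 to 0.18, 4 of 9 arrays closest to their own number), and the replicate block gave 63, 855 and 377 calls, with 0, 13 and 6 pathway genes and 0 members. The slide as a block was not run, since the headers name no slide.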
